A study of Homo sapiens with 54 samples.

Results

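The 4 human Y RNA genes, RNY1, RNY3, RNY4 and RNY5, were examined in ChIP-seq peak lists from T47D cells, an established breast cancer line that expresses estrogen and progesterone receptors. They were taken by gene symbol from the RefSeq table of GRCh38.p14, which holds 59679 genes on chromosomes 1 to 22, X and Y. All 4 lie in a single cluster of 45.8 kb on chromosome 7. Cells had received either ethanol as vehicle or the synthetic progestin R5020 for 1 h. Antibodies were directed against the progesterone receptor (PR), acetylated lysine 27 of histone H3 (H3K27Ac), the initiation factor Brf1, the repressor Maf1, and 4 subunits of RNA polymerase III (POLR3A, POLR3C, POLR3G, POLR3GL). Each of the 16 lists belongs to 1 antibody and 1 treatment, a group of 3 libraries, and no list gives values for its separate libraries, which the labels do not describe as separate cultures. The vehicle and R5020 values below therefore have no replicate error, and no difference between treatments was tested.

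Y RNAs are short noncoding RNAs that bind the Ro60 and La proteins and have been linked to RNA quality control and to the start of DNA replication. RNA polymerase III makes them from promoters that lie outside the transcribed part, built from a TATA box and a proximal sequence element. Such promoters recruit the polymerase through a BRF2-containing form of the factor TFIIIB. Most tRNA genes and the 7SL genes carry promoter elements inside the transcribed part, and there TFIIIB contains Brf1. POLR3G and POLR3GL are alternative versions of the same polymerase subunit, and Maf1 is a general repressor of the polymerase.

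On chromosome 7 of GRCh38, RNY5 spans 148941488 to 148941571 (84 bp) and RNY4 spans 148963315 to 148963410 (96 bp). RNY3 spans 148983755 to 148983856 (102 bp) and RNY1 spans 148987136 to 148987248 (113 bp). RNY3 and RNY1 are neighbours with 3279 bp between them, while 21743 bp separate RNY5 from RNY4 and 20344 bp separate RNY4 from RNY3. No other gene of the table overlaps any of the 4. The nearest protein-coding genes are PDIA4, 15802 bp beyond RNY1, and EZH2, 57196 bp from RNY5 on the other side. The lncRNA GHET1 starts 278 bp beyond RNY1, and the lncRNA LOC124901768 lies 3623 bp from RNY4. The RefSeq promoter table has no window for RNY1, RNY3, RNY4 or RNY5.

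The window of GHET1 in that table is the nearest sequence at hand, and it was chosen after the regions had been seen because several of them reach into it. It runs on the plus strand of GRCh38.p14 from 148987277 to 148987576 on chromosome 7 and begins 28 bp beyond the end of RNY1. The vehicle POLR3A region of RNY1 covers all 300 bases. Its first 57 bases, in capitals, lie inside the R5020 PR region of RNY1, and the H3K27Ac regions of both treatments start at or before its sixth base.
GHET1 window: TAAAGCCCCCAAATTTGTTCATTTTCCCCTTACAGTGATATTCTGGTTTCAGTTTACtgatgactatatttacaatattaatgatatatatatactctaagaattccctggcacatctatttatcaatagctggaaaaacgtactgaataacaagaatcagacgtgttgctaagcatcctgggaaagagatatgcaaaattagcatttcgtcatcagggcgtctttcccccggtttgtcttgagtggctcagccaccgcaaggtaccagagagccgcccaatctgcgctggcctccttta
Both strands were searched for ACANNNTGT, the core of the hormone response element that PR recognises, and the window held 0 matches. The same letters occur in 5.37% of all 35116 RefSeq windows of this length. There were also 0 matches to TATAA (20.4% of windows), ACCNTNA, the start of the proximal sequence element (27.1%), the octamer ATTTGCAT (1.77%) and GTTCGANNC from the B box of internal promoters (0.829%). These counts describe the letters of this window only. Most of the 292 bp of the R5020 PR region of RNY1, with its summit at 148987192, lie outside the window.

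POLR3A, the largest subunit of the polymerase, was found at all 4 Y RNA genes with both treatments. Presence means a region with at most 200 bp between it and the gene. Of all RefSeq genes, 1.22% had such a POLR3A region with vehicle and 1.30% with R5020. Among the 6564 other genes of at most 150 bp, the shares were 6.84% (95% Wilson interval 6.25 to 7.48) and 6.76% (6.18 to 7.40). The intervals here and below cover counting of genes only. Among tRNA genes, 359 of 421 tRNA genes had POLR3A with vehicle (85.3%, 81.6 to 88.3) and 358 with R5020 (85.0%, 81.3 to 88.1).

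**Figure D1:**
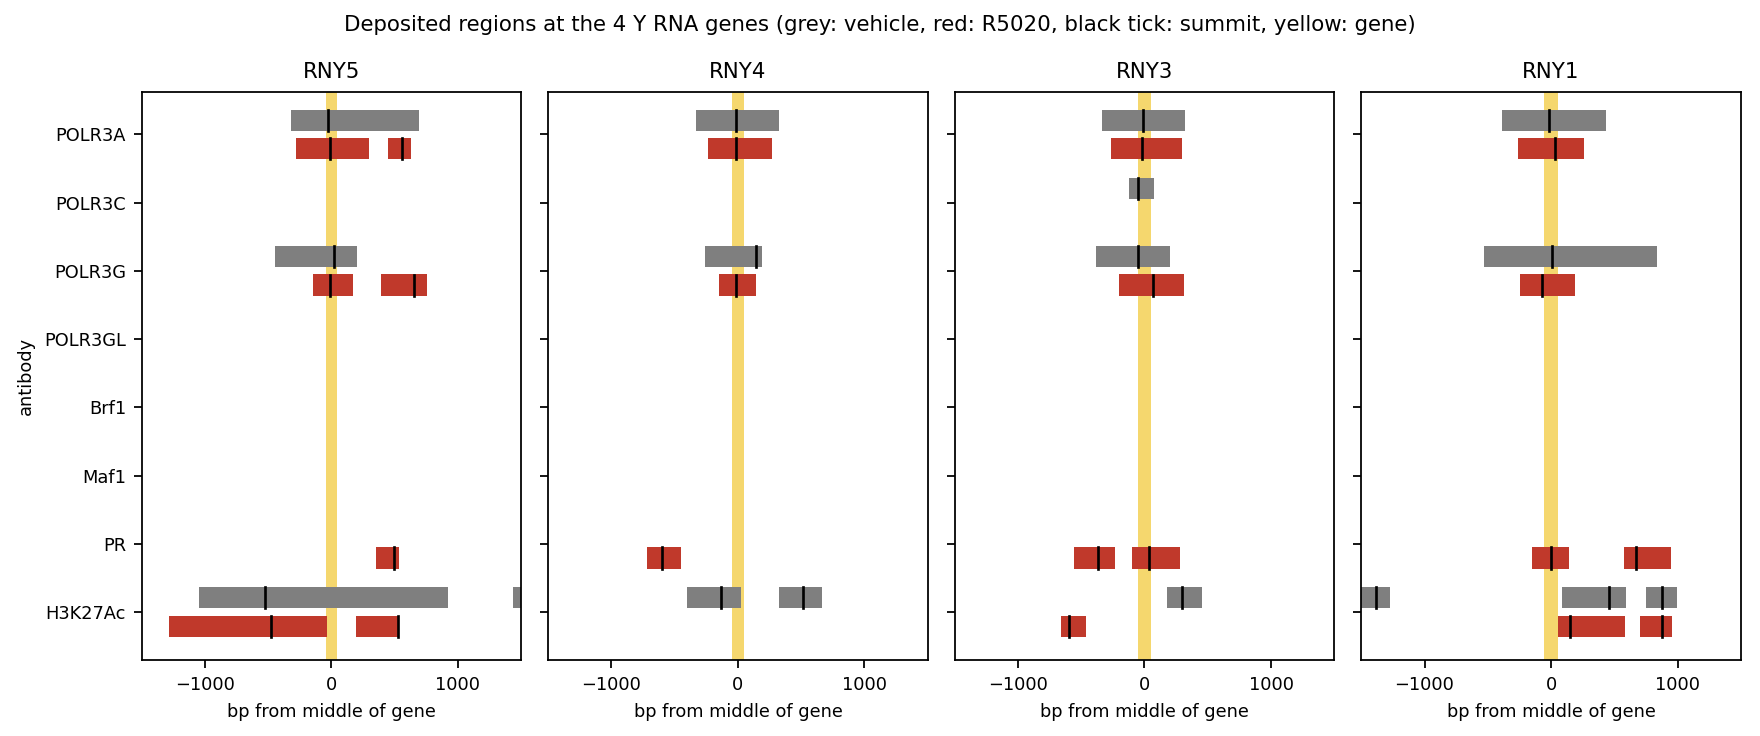
Deposited regions on either side of the middle of each Y RNA gene (x axis, bp, in the direction of the chromosome), by antibody (y axis) and treatment (grey vehicle, red R5020), with the summit of each region as a black tick and the gene in yellow. POLR3A and POLR3G regions cover every gene with both treatments, Brf1, Maf1 and POLR3GL rows are empty, and PR regions appear with R5020 alone.

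The POLR3A regions at the Y RNA genes were among the strongest of their lists. Strength is the fold enrichment that the authors' peak caller gave each region. It was ranked only within 1 list and gives no change between lists. With vehicle the folds were 57.6 at RNY1, 57.4 at RNY4, 57.2 at RNY3 and 46.8 at RNY5. These ranked 20, 23, 25 and 104 among 688 regions, so that RNY5 stood below the 3 others. With R5020 the folds were 71.1 at RNY1, 70.6 at RNY5, 70.1 at RNY4 and 69.3 at RNY3, ranks 21, 24, 30 and 36 among 1047 regions. All 4 then lay between percentiles 96.5 and 98.0 of the list. The highest fold was 58.0 with vehicle, shared by 14 regions, and 71.4 with R5020, shared by 20 regions. Folds are thus tied at the top of both lists, close to the values of the Y RNA genes, and small gaps or ranks there do not order the genes.

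Confidence in these regions was equally high. The -log10 q-values with vehicle were 437, 436, 434 and 405 for RNY1, RNY4, RNY3 and RNY5, against a list maximum of 438. With R5020 RNY1 was one of 23 regions at the list maximum of 414, and RNY5, RNY4 and RNY3 had 411, 408 and 402. The 10 other genes of a fixed list with external promoters also all had POLR3A, with vehicle folds from 24.5 at RPPH1 (RNase P RNA) to 57.2 at RNU6-9 (U6 spliceosomal RNA). In the R5020 list their folds ran from 19.5 at RPPH1 to 68.5 at RNU6-2, against 69.3 at RNY3, a gap of the small kind just described. Of the tRNA genes, 121 exceeded the lowest Y RNA gene with vehicle and 43 with R5020. The tRNA genes with a POLR3A region had a median fold of 38.9 with vehicle and 46.0 with R5020, and the medians of the Y RNA genes were 57.3 and 70.3.

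**Figure D2:**
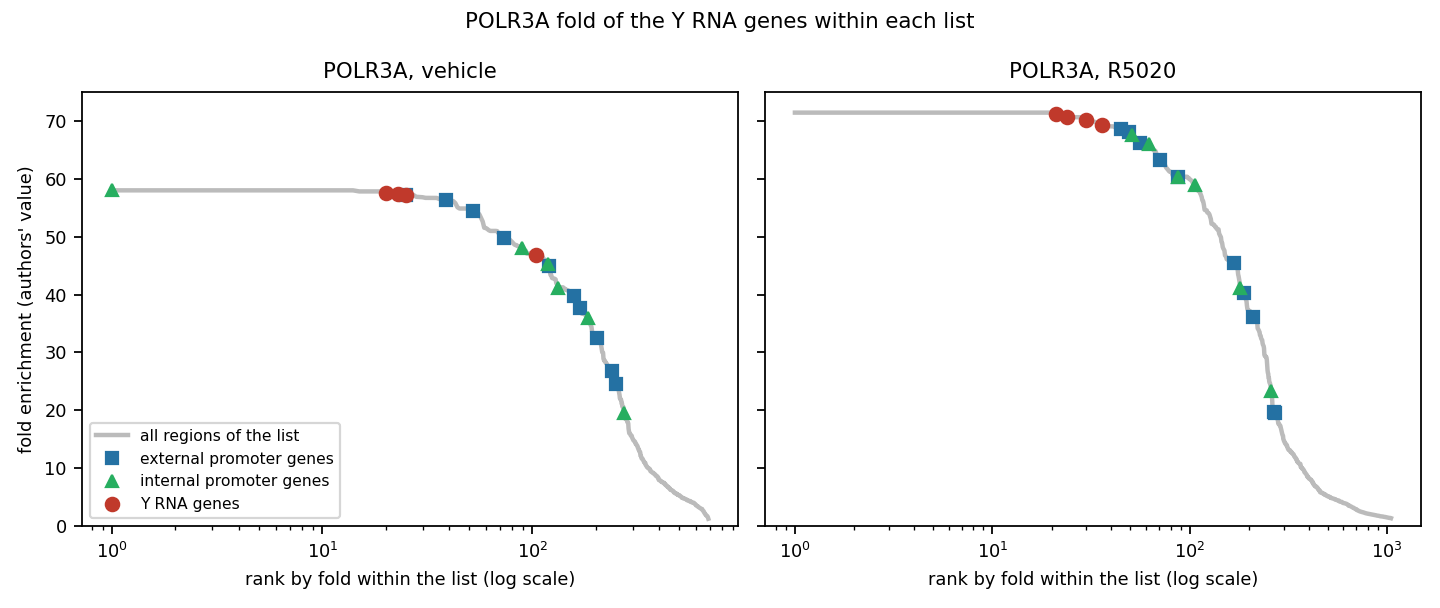
POLR3A fold (y axis, the authors' value) against rank within the vehicle list (left) and the R5020 list (right), with rank on a log scale. Grey lines are all regions, red circles the Y RNA genes, blue squares the genes with external promoters and green triangles the genes with internal promoters. With R5020 the Y RNA genes lie between 69.3 and 71.1, to the left of every blue and green symbol, by a gap too small to order the genes. With vehicle VTRNA1-3 (58.0) lies to the left of every Y RNA gene. RNY5 (46.8) lies there to the right of several blue and green symbols. The tRNA genes have no symbols of their own.

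The summit of each POLR3A region lay on the gene itself. With vehicle it was 25 bp from the middle of RNY5, 13 bp from that of RNY4, 13 bp from that of RNY3 and 18 bp from that of RNY1. With R5020 the distances were 13, 14, 17 and 31 bp in the same order. The median distance over the 4 genes was 15.5 bp with both treatments, and over the tRNA genes with a region it was 11.0 bp with vehicle and 10.0 bp with R5020.

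The POLR3A regions of all 4 genes were narrower in the R5020 list. The widths with vehicle and then with R5020 were 1015 and 580 bp at RNY5, and 654 and 508 bp at RNY4. They were 658 and 564 bp at RNY3, and 824 and 516 bp at RNY1. Most other regions were narrower too: of 573 vehicle POLR3A regions found again with R5020, 86.4% were narrower there, with medians of 454 and 391 bp. Region width depends on depth and on the caller's settings, which the lists do not record.

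At RNY5 the vehicle region reached further on the high-coordinate side than at the other genes. The R5020 list had a second, weak POLR3A region in this stretch, at 148941977 to 148942157, 405 bp from the gene, with a fold of 4.82 and a -log10 q of 7.26. The PR, POLR3G and H3K27Ac lists with R5020 each had a weak region at the same place. PR was found at 148941881 to 148942063 (fold 3.55), POLR3G at 148941918 to 148942288 (fold 3.22) and H3K27Ac at 148941722 to 148942059 (fold 2.62). Their summits lay 67 bp (POLR3A), 160 bp (POLR3G) and 34 bp (H3K27Ac) from that of PR. The vehicle POLR3A and H3K27Ac regions of RNY5 were continuous over this position, and the vehicle PR and POLR3G lists had no region on it. A further weak POLR3A region was found with vehicle only, at 148966173 to 148966344, 2762 bp from RNY4, with a fold of 5.74.

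Of the other polymerase subunits, POLR3G was found at all 4 Y RNA genes with both treatments. Of all RefSeq genes, 26.1% had a POLR3G region with vehicle and 22.4% with R5020; among the other short genes it was 12.5% (11.7 to 13.3) and 10.6% (9.90 to 11.4). The vehicle folds were 4.97 at RNY3, 4.66 at RNY1, 4.26 at RNY5 and 3.19 at RNY4, or percentiles 98.8, 98.2, 96.6 and 76.6 of the 58424 regions. RNY4 was thus the weakest of the 4 with vehicle, and its -log10 q was 4.17. With R5020 the folds were 7.01 at RNY1, 6.06 at RNY5, 5.04 at RNY4 and 4.04 at RNY3, all at or above percentile 95.6 of 46875 regions. The order of RNY3 and RNY4 differed between the lists, and with no replicates the difference cannot be set against an error.

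The POLR3G regions overlapped the POLR3A region of the same gene in every case. The summits of the 2 proteins were 44, 152, 37 and 24 bp apart at RNY5, RNY4, RNY3 and RNY1 with vehicle, and 3, 5, 82 and 106 bp apart with R5020. All 4 POLR3G regions were narrower in the R5020 list, as were 61.9% of the 22900 vehicle POLR3G regions found again with R5020. POLR3G was also at 9 of the 10 other genes with external promoters, in the vehicle list as in the R5020 list, and RPPH1 lacked it in both.

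POLR3C and POLR3GL had almost no region at the Y RNA genes. POLR3C was found at RNY3 alone and with vehicle alone, in a region of 195 bp over the gene with a fold of 3.00 and a -log10 q of 2.93, near the lowest value of 1.30 that the lists admit. It was found at 1.02% of all RefSeq genes with vehicle and 1.09% with R5020. Its vehicle list reached 23.5% of the tRNA genes and 1 of the 10 other genes with external promoters. For its R5020 list these values were 27.8% and 2 of 10. The highest POLR3C fold was 9.16 with vehicle and 8.06 with R5020. POLR3C overlapped 16.7% of all POLR3A regions with vehicle and 14.4% with R5020. Among the other POLR3A regions with a fold at least that of the lowest Y RNA gene, the shares were 38.6% and 61.8%. Whether the weak POLR3C signal accounts for its absence at the Y RNA genes was not tested. With R5020 the closest POLR3C region was 6016 kb from the cluster. POLR3GL was found at 0 of 4 Y RNA genes with either treatment, against 0.372% and 0.260% of all RefSeq genes. The highest fold in its lists was 4.73 with vehicle and 4.84 with R5020. This absence was not particular to the Y RNA genes. The vehicle list placed POLR3GL at 0 of 421 tRNA genes, and the R5020 list placed it at 10 (2.38%). Neither list had it at any of the 10 other genes with external promoters. POLR3GL overlapped 0 of 688 POLR3A regions in the vehicle lists and 10 of 1047 in the R5020 lists. The R5020 lists of these subunits include libraries whose treatment tag says ethanol although the title says R5020: 2 of 3 for POLR3C, 1 of 3 for POLR3G and 1 of 3 for POLR3GL. Libraries were grouped by title, and any difference between treatments for these subunits cannot be told apart from this conflict. The names of the R5020 lists of POLR3C, POLR3G and POLR3GL also shorten R5020 differently from those of the other antibodies. They were taken to mean R5020.

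Brf1, the TFIIIB component of internal promoters, was found at 0 of 4 Y RNA genes with either treatment. It was found at 0.846% of all RefSeq genes with vehicle and 1.45% with R5020. The closest Brf1 region to RNY1 was 323 kb away in both lists. The Brf1 lists did hold tRNA genes, 299 of 421 (71.0%, 66.5 to 75.1) in the vehicle list and 308 (73.2%, 68.7 to 77.2) in the R5020 list. Of the 7 fixed genes with internal promoters, 6 had Brf1 with each treatment, and these were the 6 that had POLR3A: RN7SL1 and RN7SL2 (7SL RNA), BCYRN1 (BC200 RNA), VTRNA1-1, VTRNA1-2 and VTRNA1-3 (vault RNAs). Of the 10 with external promoters, Brf1 was found at TRU-TCA1-1 (selenocysteine tRNA) with vehicle, and at TRU-TCA1-1 and RNU6-1 with R5020.

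Brf1 was then compared among POLR3A regions of similar strength. In the R5020 list 34 other POLR3A regions had a fold at least that of the lowest Y RNA gene, and Brf1 overlapped 34 of them. That set held 0 of the 10 other genes with external promoters. RNU6-2 (fold 68.5) and RNU6-9 (68.0), both without Brf1, fell just below the cut of 69.3, a gap too small to order the genes. In the vehicle list there were 101 such regions, and Brf1 overlapped 97 (96.0%). The 4 without Brf1 lay over RNU6-9, RNU6-2, RN7SK (7SK RNA, with GSTA4) and RMRP (RNase MRP RNA), which all belong to the fixed list of genes with external promoters. Over whole lists, Brf1 overlapped 50.6% of vehicle and 63.5% of R5020 POLR3A regions. This comparison was added after the regions had been seen, and no test was made.

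**Figure D3:**
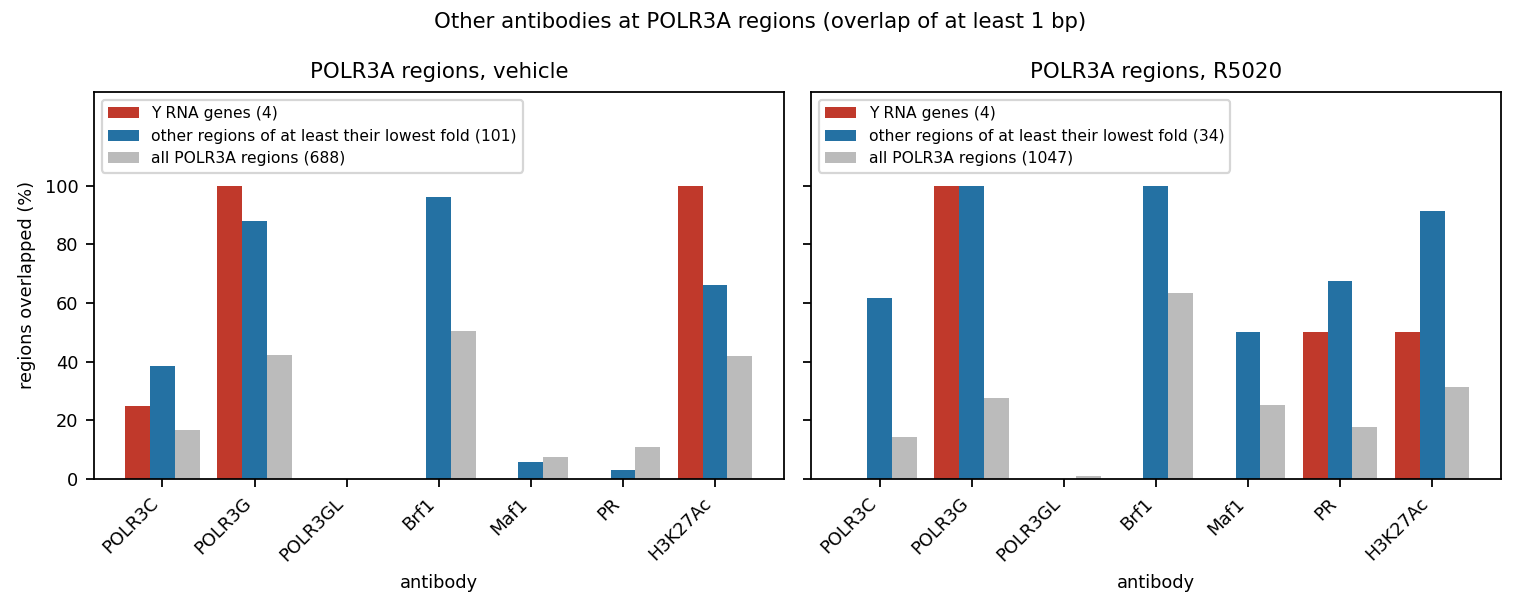
Share of POLR3A regions (y axis, %) overlapped by each other antibody (x axis) in the vehicle lists (left) and the R5020 lists (right). Red bars are the 4 Y RNA genes, blue bars the other POLR3A regions with at least the lowest fold of a Y RNA gene (101 and 34), grey bars all POLR3A regions (688 and 1047). Brf1 is at 0 for the Y RNA genes and at 96.0% and 100% of the other strong regions. The other strong regions with R5020 include none of the other fixed genes with external promoters.

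Maf1 was found at 0 of 4 Y RNA genes with either treatment, against 4.74% of all RefSeq genes with vehicle and 21.0% with R5020. Among the other short genes the shares were 1.11% (0.885 to 1.40) and 4.11% (3.66 to 4.62), so a count of 0 of 4 is near this background. With R5020 the closest Maf1 region lay 41.4 kb from RNY1 and 75.8 kb from RNY5. Maf1 was at 94 of 421 tRNA genes with R5020 (22.3%, 18.6 to 26.5) and at 14 with vehicle (3.33%, 1.99 to 5.50). Among the genes with external promoters it was at 5 of 10 with R5020, namely RN7SK, RPPH1, RNU6-1, RNU6-2 and RNU6-8. Of the 34 other strong R5020 POLR3A regions, Maf1 overlapped 17. Of all R5020 POLR3A regions it overlapped 25.3%.

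PR was found within 200 bp of 0 of 4 Y RNA genes with vehicle and of 2 of 4 with R5020. With vehicle 8.22% of all RefSeq genes had a PR region within 200 bp, and the closest one to the cluster was 56.8 kb from RNY5. With R5020, RNY1 and RNY3 had PR within 200 bp, while the closest PR region lay 309 bp from RNY5 and 406 bp from RNY4. The shares of genes given here are for 200 bp, and none was computed for a wider distance. Of all RefSeq genes 47.3% had PR with R5020, and 39.2% had it with R5020 and not with vehicle, a share that includes many long genes. Among other short genes 9.99% (9.29 to 10.7) had PR with R5020, and 107 of 421 tRNA genes (25.4%, 21.5 to 29.8). The count of 2 of 4 within 200 bp is near the share of all genes and above the shares of other short genes and tRNA genes. With only 4 genes, no such difference was tested. The PR lists held 6663 regions with vehicle and 173129 with R5020, and when both were limited to equal numbers of top regions PR was at 0 of 4 genes.

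At RNY1 the R5020 PR region ran from 148987042 to 148987333 and its summit fell on the middle of the gene (distance 0 bp), 31 bp from the POLR3A summit. Its fold was 12.1, percentile 77.6 of the list, and its -log10 q was 52.8. At RNY3 one PR region covered the gene, from 148983707 to 148984083, with a fold of 11.6 and its summit 55 bp from that of POLR3A. Both of these regions lay entirely inside the POLR3A region of their gene. RNY3 had a second and stronger PR region beside the gene, at 148983248 to 148983574 (fold 16.0, percentile 84.2), 180 bp away, of which 38 bp overlapped the POLR3A region. RNY1 likewise had a second PR region 521 bp away, at 148987770 to 148988138, with a fold of 5.23.

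At RNY4 and RNY5 the PR regions did not meet the POLR3A region over the gene. At RNY4 the region at 148962642 to 148962908 had a fold of 9.90 (percentile 71.8) and its summit lay 600 bp from the middle of the gene, with no overlap with POLR3A. At RNY5 the PR region met the weak POLR3A and POLR3G regions beside the gene, by 87 and 146 bp, and had a fold of 3.55 (percentile 14.2), the lowest of the 6 PR regions within 5 kb of the cluster's genes. Of the 4 POLR3A regions over the genes, 2 met PR with R5020, by 1 bp or by 50% of both regions. Among the other strong POLR3A regions 23 of 34 (67.6%) met PR, and 17.9% of all R5020 POLR3A regions did. Of the 10 genes with external promoters 8 had PR within 200 bp with R5020, and RNU6ATAC and TRU-TCA1-1 did not.

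H3K27Ac, a mark of active promoters and enhancers, was found within 200 bp of 4 Y RNA genes with vehicle and of 2, RNY5 and RNY1, with R5020. Of all RefSeq genes, 39.2% carried the mark with vehicle, 40.2% with R5020, and 2.12% with vehicle alone. All 10 other genes with external promoters had it with both treatments. Of the 172 tRNA genes with H3K27Ac under vehicle, 19 lacked a region with R5020, and of 869 other short genes 112 did.

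The acetylation ranked highest at RNY5, above the list's median at RNY4 and RNY1, and low at RNY3. At RNY5 the vehicle region spanned 1967 bp with a fold of 13.4 (percentile 93.4) and its summit 527 bp to the low-coordinate side of the gene's middle. The vehicle folds were 5.21 at RNY4 (percentile 74.5), 4.13 at RNY1 (62.3) and 2.60 at RNY3 (7.15), and the RNY3 region had a -log10 q of 2.04. The RNY3 and RNY1 regions began 124 and 33 bp beyond the gene and did not cover it. The fixed genes with external promoters had vehicle H3K27Ac folds from 5.43 at RPPH1 to 23.8 at RNU6-9, above RNY4, RNY1 and RNY3.

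With R5020 the RNY5 domain was split in the list, into 148940249 to 148941497 (fold 10.7, percentile 90.7) and the weak region beyond the gene described above. The gap between them held the POLR3A summit at 148941516. At RNY1 the R5020 region spanned 148987246 to 148987776 with a fold of 3.74, meeting the very end of the gene. At RNY4 the closest R5020 region lay 4276 bp away, and at RNY3 it lay 410 bp away with a fold of 2.99. The vehicle regions at RNY4 and RNY3 were of low or moderate fold. Whether their absence with R5020 exceeds the variation between libraries was not tested. The fall from 4 to 2 also depends on the 200 bp rule, since by overlap with the gene the count was 2 with each treatment. These were RNY5 and RNY4 with vehicle, and RNY5 and RNY1 with R5020. At RNY3 the R5020 region 410 bp away ranked higher in its list (percentile 18.4) than the vehicle region 124 bp away (7.15). Counting every H3K27Ac region within 5 kb, the cluster held 8 with vehicle and 6 with R5020.

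**Figure D4:**
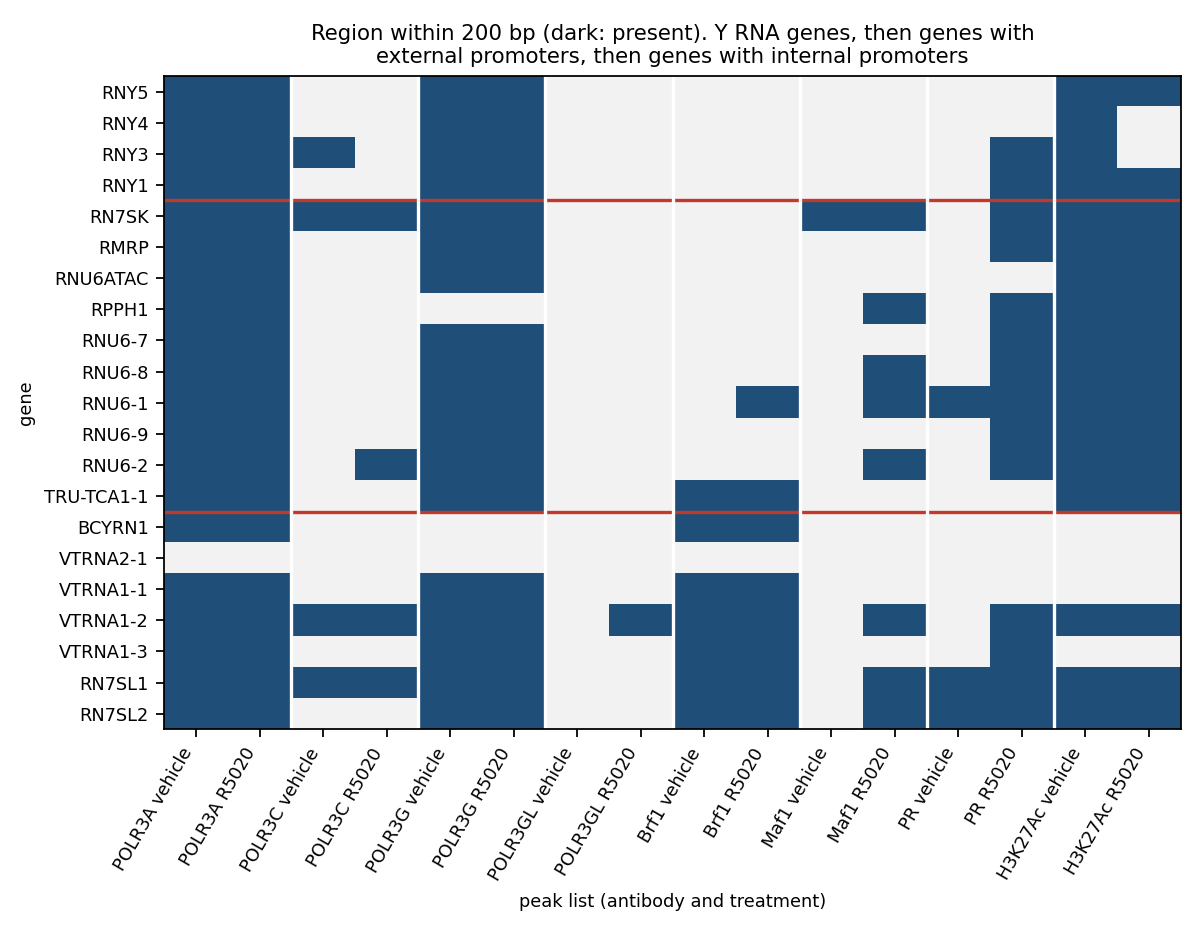
Presence of a region within 200 bp (dark) of each gene (y axis) in each of the 16 lists (x axis), for the 4 Y RNA genes (top block), 10 genes with external promoters (middle) and 7 genes with internal promoters (bottom). The Y RNA genes have no Brf1, while 6 of 7 genes in the bottom block have it with both treatments, and RNY4 and RNY3 are the rows of the upper blocks with H3K27Ac under vehicle and not under R5020.

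Over the 16 lists RNY1 had a region in 7, RNY3 in 7, RNY5 in 6 and RNY4 in 5. The genes of most similar pattern were sought among 726 genes that are not pseudogenes and had POLR3A in either treatment, by the number of lists with the same presence and then by the mean absolute difference of fold percentiles. For RNY1 the first gene was GHET1 (16 of 16 lists, difference 0 points), whose strongest region was the same one in each list. Next came CCDC107 (16 of 16, 5.68 points), whose POLR3A region also covers RMRP, and RNU6-9 (16 of 16, 6.38 points). For RNY5 the closest was RNU6ATAC (16 of 16, 2.77 points), followed by GSTA4 (15 of 16, 4.23 points), which shares the POLR3A region of RN7SK, and RMRP (15 of 16, 4.76 points).

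RNY4 was closest to RNY5 (15 of 16 lists, 8.90 points), RNU6ATAC (15 of 16, 11.6 points) and LINC01783 (15 of 16, 18.5 points), whose POLR3A region also lies at TRE-TTC4-1, a tRNA gene. RNY3 was closest to GHET1 and RNY1 (14 of 16, 10.3 points each) and RNY4 (14 of 16, 13.9 points), and no gene matched it in all 16 lists. The vehicle POLR3C region and the vehicle-only H3K27Ac region of RNY3 set it apart from RNY1. Both regions were weak, with -log10 q of 2.93 and 2.04, and neither passes a filter of at least 5. Lists in which both genes lacked a region counted as matching.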

How the data were processed

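ChIP-seq of 8 antibodies and of input chromatin was labelled as 54 libraries in 18 groups of 3 (48 ChIP and 6 input), grouped here by title. Per the submitters' processing notes, reads were handled with cutadapt, Bowtie2 and MACS2 on build hg38. Versions, settings and the way replicates and input were combined are not given in the sources used here. The authors deposited 16 peak lists, 1 per antibody and treatment, in which each region has a fold enrichment, a ratio given by the caller. The authors' lists also give the -log10 of each region's q-value as made by the caller, lowest 1.30. Lists hold no read counts, so the depth is unknown, and a longer list can reflect deeper libraries.

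Regions on chromosomes 1 to 22, X and Y were used (370 to 173129 per list), with 1-based coordinates; no rows of a list overlapped. Where several regions lay within 200 bp of a gene, the one of highest fold was taken. A percentile is the share of a list's regions with a lower fold, ties counted as 50%. GRCh38.p14 is the RefSeq version of hg38. Its table gives spans without strand. The 421 tRNA genes have numbered symbols, start beyond 100 kb and leave out TRU-TCA1-1. Members, gene lists and alternatives were chosen with earlier results of these data known; the named genes were all 4 members and the fixed polymerase III genes, and the comparison of regions of equal POLR3A strength, the short genes and the GHET1 window were added after the regions were seen. The A box of internal promoters, which 0.849% of windows hold, had no match in the GHET1 window. Interval searches were tested on simulated data. Python 3.11.15, numpy 2.4.6, pandas 2.3.3, scipy 1.17.1 and matplotlib 3.10.9 were used.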

Additional observations from a re-analysis of the deposited data

How the results depend on the processing

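No paired analysis was possible because no list gives values for single libraries or carries a replicate number, which also prevents leaving out a replicate or the 4 libraries with conflicting tags. POLR3A was at 4 of 4 Y RNA genes, and Brf1, Maf1 and POLR3GL at 0, under all 6 alternatives run for presence, with both treatments. A count of 0 could rise only with the distance of 1 kb, because the other alternatives narrow the main rule. For PR with R5020 the count of 2 became 4 within 1 kb and 0 when both PR lists were limited to equal numbers of top regions. The share of all genes with PR within 1 kb was not computed. H3K27Ac with vehicle was at 3 genes with -log10 q of at least 5, at 2 by overlap or with a fold of at least 5, and at 1 by summit. With R5020 H3K27Ac was also at 2 by overlap. It was at 1 there by summit, with -log10 q of at least 5 or with a fold of at least 5. The POLR3C region at RNY3 was lost (0 genes) with either filter. POLR3G with vehicle was at 3 genes with -log10 q of at least 5 and at 0 with a fold of at least 5. POLR3G with R5020 was at 4 and 3 genes under these filters. The number of regions within 5 kb changed by over 1.5 times, or to 0, only with -log10 q of at least 5. H3K27Ac went to 3 with vehicle and 1 with R5020, and POLR3C with vehicle to 0. Smaller changes under this filter were PR with R5020 from 6 to 5, and POLR3G from 4 to 3 with vehicle and from 5 to 4 with R5020. Windows of 2 kb and 10 kb changed no count by over 1.5 times. Ranking by -log10 q in place of fold moved 19 of 25 percentiles beyond their counting interval, most at the POLR3C region of RNY3 (44.7 to 11.1). Ranks over all rows of a list moved none. PR met the POLR3A region of 2 genes under both overlap rules.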

Other observations

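Y RNA pseudogenes are copies of Y RNA sequences scattered over the genome, and 75 of them were in the RefSeq table. None had a POLR3A, POLR3C, POLR3GL, Brf1 or Maf1 region within 200 bp with either treatment (0 of 75, Wilson upper limit 4.87%). Reads that fit several copies may have been dropped or misplaced, and how the mapping treated them is not given in the sources used here. PR was found with R5020 at 4 of them, RNY1P10, RNY1P15, RNY3P12 and RNY3P13, with folds of 12.7, 16.6, 6.97 and 4.23. RNY4P10 had H3K27Ac with both treatments (folds of 12.6 with vehicle and 20.7 with R5020) and POLR3G with both (4.22 and 3.04), and RNY4P26 had POLR3G with vehicle (2.75). These 6 pseudogenes are named because their regions were seen.

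The protein-coding neighbours of the cluster differed from the Y RNA genes in the antibodies found there. EZH2, a histone methyltransferase, and PDIA4, a protein disulfide isomerase, had no POLR3A region within 200 bp of their spans with either treatment. Both had POLR3G and H3K27Ac with both treatments, and both had Maf1 and PR with R5020. EZH2 also had PR with vehicle. Their spans are far longer than those of the Y RNA genes, so more regions can fall within them.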
